A study of Mus musculus with 8 samples.

Results

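The smooth muscle contractile genes described here are 8 genes taken by symbol from the 32285 genes of the deposited gene lists: Myh11, Tagln, Acta2, Cnn1, Myl9, Lmod1, Actg2 and Tpm2. No filter was set on their values, but they were chosen with earlier results of these data known. All 8 were present in every sample. The study followed the hearts of wild-type male C57BL/6J mice through pressure overload. Mice 8 weeks old underwent transverse aortic constriction (TAC), in which a suture narrows the aortic arch, and hearts were taken 2, 4 or 6 weeks later (TAC-2w, TAC-4w and TAC-6w), while the sham group had the same operation without ligation. Each of the 4 groups gave 1 Visium tissue section, in which a spot covers a small area that can hold several cells, and 1 droplet library of dissociated heart, 8 samples in all. Where 4 values are given in group order they start with sham and follow the time after TAC. The labels do not say how many hearts went into a sample. With 1 sample a group no test between groups was possible, so values are given with exact 95% intervals that cover counting error only, not the difference between animals.

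Smooth muscle cells shorten when myosin filaments pull on actin filaments, and contraction is switched on by phosphorylation of the regulatory light chain of myosin. In the heart these cells form the wall of the coronary arteries and veins, whereas pericytes, the other mural cells, sit on capillaries and carry little of this apparatus. Many of its genes are driven by serum response factor and its partner myocardin through a short DNA motif, the CArG box. Fibroblasts that become activated after injury also take up some of these genes, above all Acta2 and Tagln.

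The motor is represented by Myh11, the smooth muscle myosin heavy chain, at chr16:14194527-14292188, and by Myl9, a regulatory myosin light chain, at chr2:156775408-156781657. The thin filament is represented by Acta2, smooth muscle alpha-actin, at chr19:34240336-34255585, by Actg2, smooth muscle gamma-actin, at chr6:83512909-83536251, and by Tpm2, beta-tropomyosin, at chr4:43513726-43523583. Proteins that bind actin are Tagln, transgelin or SM22, at chr9:45929628-45936058, Cnn1, calponin 1, at chr9:22099221-22109221, and Lmod1, leiomodin 1, an actin nucleator, at chr1:135324813-135368065. These positions are RefSeq gene bounds on GRCm38.p6. The actin genes are near-identical in their coding sequence, so counts of Acta2 and Actg2 may hold misassigned reads, and the same caution holds for Myl9 and its close paralogs.

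Promoter windows were in the RefSeq table for 5 of the 8 genes (Acta2, Cnn1, Myl9, Lmod1 and Tpm2) and not for Myh11, Tagln and Actg2. The 250 bases before each start were searched for the CArG box, a palindromic motif of 10 bases that reads as itself on the other strand, so that a search of 1 strand covers both. An exact box was found in Myl9 and boxes 1 base off in Acta2, Myl9 and Lmod1, while no box with at most 1 base off was found in the Cnn1 and Tpm2 windows. Across the 32851 mouse promoter windows, 1.47% held an exact box and 18.6% a box with at most 1 base off. The stretches holding the boxes are shown because these are the genes whose transcripts are followed below; they are written 5′ to 3′ on the strand of the gene, with the boxes in capitals. The Acta2 stretch is chr19:34255378-34255477, minus strand, with boxes 84 and 34 bases before the start; the Myl9 stretch is chr2:156775283-156775394, plus strand, with the exact box 161 and the other 99 bases before the start; the Lmod1 stretch is chr1:135324604-135324678, plus strand, with boxes 189 and 164 bases before the start. For each gene 1 promoter entry was used, and its start can lie inside the gene bounds given above. The whole Acta2 stretch lies inside those bounds. A match describes the letters and not a bound site.
Acta2: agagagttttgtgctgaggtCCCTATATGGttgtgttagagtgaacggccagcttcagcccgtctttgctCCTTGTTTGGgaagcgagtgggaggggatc
Myl9: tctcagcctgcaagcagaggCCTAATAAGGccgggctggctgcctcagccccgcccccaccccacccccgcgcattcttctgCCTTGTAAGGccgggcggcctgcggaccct
Lmod1: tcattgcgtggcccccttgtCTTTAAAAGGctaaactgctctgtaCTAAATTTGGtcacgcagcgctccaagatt

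The 4 libraries held 5854 to 10275 barcodes and 28793316 to 86671674 unique molecular identifiers (UMIs, each 1 captured RNA molecule), and 5399 to 7965 cells per library passed the filters. The 4 sections held 1228 to 2193 spots and 25996378 to 48754396 UMIs. By the labels, the sham and TAC-2w sections share batch 1, the TAC-4w samples are batch 2 and the TAC-6w section batch 3, whereas among libraries sham shares batch 3 with TAC-6w. TAC-2w against sham is thus a within-batch comparison in the sections, TAC-6w against sham is one in the libraries, and in every other comparison of TAC with sham batch and group cannot be told apart. The TAC-4w library stood apart from the others: 431 of its 6531 cells were fibroblast-like, and B, neutrophil-like and platelet-like cells numbered 2429, 1252 and 552. Whether nuclei or whole cells were loaded was not settled, since the extraction text of the labels gives the former and the study's methods the latter. Any pair of libraries shared 9 to 30 barcodes, at most 0.359% of the smaller library.

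The largest source of the contractile transcripts, pooled over the libraries, was a small cluster of mural-like cells, named from Rgs5, Kcnj8, Abcc9, Notch3, Vtn and Higd1b with the 8 genes kept out of the clustering. The cluster held 220 cells, namely 103 in the sham, 91 in the TAC-2w, 7 in the TAC-4w and 19 in the TAC-6w library, or 1.29%, 1.45%, 0.107% and 0.352% of cells. Pooled over the libraries, these cells held 97.5% of the Actg2, 96.2% of the Cnn1, 95.7% of the Myh11, 89.1% of the Acta2, 83.6% of the Tagln, 72.0% of the Lmod1, 70.2% of the Tpm2 and 64.3% of the Myl9 UMIs. Most of these UMIs were from the sham and TAC-2w libraries, and the share was lower in the others for some genes: at TAC-4w it was 11.4% for Myl9 and 30.4% for Lmod1, and at TAC-6w 47.5% for Tagln and 47.7% for Tpm2. The mural-like cells carried a high mitochondrial share, and 16 of the 220 lay under 5% against 9493 of 11016 fibroblast-like cells. Acta2 was seen in 84.1%, 77.6%, 100% and 100% of mural-like cells, in group order, once thinned to 1000 UMIs. Cells under 1000 UMIs, 15, 6, 0 and 1 in group order, were left out of these shares. Over all mural-like cells, unthinned, the shares were 75.7%, 78.0%, 100% and 100%. B cells, which should lack the gene, gave 1.3%, 2.61%, 0.124% and 1.57% at the same depth (unthinned, 3.90%, 8.33%, 0.412% and 1.97%).

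The question of how specific the genes are to mural cells was taken up gene by gene as counts per 1000000 UMIs (CPM) of each cell type. In the sham library Myh11 stood at 3624 CPM (3515 to 3736) in mural-like and 1.85 CPM (1.49 to 2.27) in fibroblast-like cells, a ratio of 1960 (1590 to 2442). Its ratio was 1949 in the TAC-2w, 5463 in the TAC-4w and 4723 in the TAC-6w library. The TAC-4w value rested on 4 fibroblast UMIs and the TAC-6w value on 17. Myl9, the other motor gene, had 4108 against 21.4 CPM in sham and ratios of 192 (180 to 206), 215, 178 and 400 in group order.

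Among the thin-filament genes the actins differed widely. Acta2 had 18061 CPM (17816 to 18309) in mural-like and 34.4 CPM (32.8 to 36.1) in fibroblast-like cells of the sham library, with ratios of 525 (499 to 552), 553, 245 and 627 in group order. Actg2 had 530 against 0.144 CPM in sham, a ratio of 3687 (1779 to 9209), and 3079 in TAC-2w, on 8 fibroblast UMIs. In the TAC-4w library Actg2 had 89 UMIs in the 7 mural-like cells and none in fibroblast-like cells, at least 2690-fold higher against a floor of 3 counts, and in TAC-6w it had 41 against 5 UMIs, under the minimum of 50 UMIs set for a call. Tpm2, with 5877 against 60.7 CPM in sham, had the lowest ratios of the 8 in the sham library, 96.7 (92.6 to 101), then 156, 185 and 144.

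The actin-binding genes spanned the same range. Cnn1 stood at 1036 against 0.349 CPM in sham, a ratio of 2966 (1845 to 5109). Its ratio was 2084, 2267 and 1629 in the TAC-2w, TAC-4w and TAC-6w libraries. The TAC-4w value rested on 50 mural and 2 fibroblast UMIs and the TAC-6w value on 11 fibroblast UMIs, so both are uncertain in size. Tagln stood at 14667 against 53.3 CPM, with ratios of 275 (264 to 287), 334, 252 and 139. Lmod1 stood at 966 against 6.37 CPM, with ratios of 152 (134 to 173), 111, 40.5 and 387, the last resting on 41 fibroblast UMIs.

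At the 1.5-fold limit used for a call, 8 of 8 genes were higher in mural-like cells in sham, 8 of 8 in TAC-2w and 8 of 8 in TAC-4w, as were the 7 genes with enough UMIs in TAC-6w. Over all genes tested, 17.9% in sham, 16.6% in TAC-2w, 19.9% in TAC-4w and 21.6% in TAC-6w were called higher. The median ratio of the 8 genes was 400 in sham, where the median over all genes was 0.872. A list of 15 other genes of the contractile apparatus was also higher in mural-like cells in 15 of 15 cases in sham and TAC-2w and in 14 of 14 in TAC-4w and TAC-6w, with smaller median ratios of 12.5, 18.0, 11.9 and 15.6. In sham, Mylk, the myosin light chain kinase, had a ratio of 247, Kcnmb1, the smooth muscle subunit of the BK channel, 1733, Des, desmin, 39.7, and Cald1, caldesmon, which many cells use, 5.79. Of the regulators, Myocd, myocardin, was 999 times higher in mural-like than in fibroblast-like cells of sham and its partner Srf 2.78 times. Klf4, a factor known to oppose the contractile program, stood at 0.464. The Kcnmb1 and Myocd ratios rest on few fibroblast UMIs and are uncertain in size. The list of 6 regulators as a whole was mixed, with 3 higher and 1 lower of 6 tested in sham, 2 and 1 of 6 in TAC-2w, 0 and 3 of 4 in TAC-4w and 1 and 2 of 5 in TAC-6w; Myocd was under 50 UMIs in both later libraries, with 6 and 21 in mural-like cells.

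**Figure D1:**
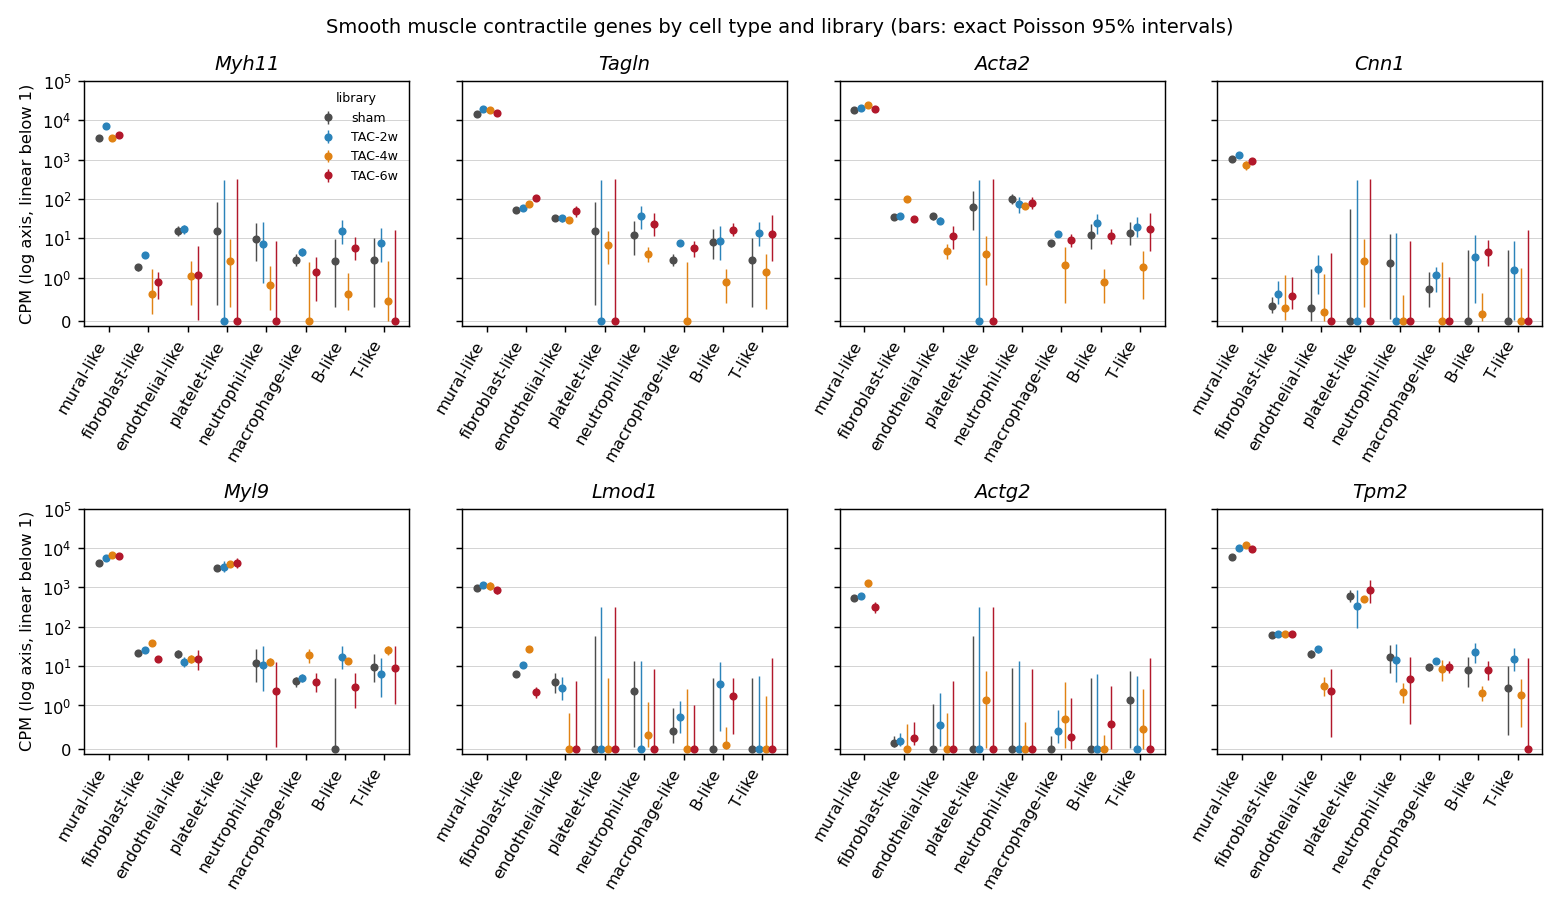
Levels of the 8 contractile genes by cell type in the 4 libraries, in CPM on an axis that is logarithmic above its linear foot, with exact Poisson 95% intervals. Mural-like cells stood above each other type shown for every gene, and platelet-like cells came nearest for Myl9, as in the TAC-4w library with 6819 CPM in mural-like and 3956 CPM in platelet-like cells.

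Myh11, Cnn1 and Actg2 were low in fibroblast-like cells, near the level of macrophages, which should lack all 8. Tagln, Acta2, Lmod1, Myl9 and Tpm2 stood above the macrophage level. Free RNA was not measured. Actg2 had 7, 8, 0 and 5 UMIs in fibroblast-like cells, in group order, and 0, 6, 1 and 1 in macrophages. Myh11 was at 1.85, 3.74, 0.637 and 0.897 CPM in fibroblast-like cells, in group order, and at 2.86, 4.62, 0 and 1.41 CPM in macrophages, and Cnn1 at 0.349, 0.628, 0.319 and 0.580 against 0.735, 1.15, 0 and 0 CPM. The zeros allow up to 2.56 CPM at TAC-4w and, for Cnn1, 1.04 CPM at TAC-6w. Whether fibroblasts express Myh11, Cnn1 and Actg2 was not tested, and these genes are not read as expressed there. Tagln reached 53.3, 59.0, 73.0 and 108 CPM against 2.86, 7.81, 0 and 5.65 CPM in macrophages, and Tpm2 60.7, 64.4, 66.4 and 64.8 against 9.32, 13.3, 8.33 and 9.60 CPM. Lmod1 reached 6.37, 10.5, 26.8 and 2.16 against 0.409, 0.747, 0 and 0 CPM, although its TAC-6w level was near the 1.73 CPM (3 UMIs) of B cells. Acta2 and Myl9 lay closer to other blood cells. Acta2 reached 34.4, 36.6, 101 and 30.7 CPM against 7.44, 12.8, 2.08 and 9.03 CPM in macrophages, but B cells had 24.2 CPM at TAC-2w, and neutrophil-like cells, at 102, 73.3, 68.4 and 79.6 CPM, were above fibroblast-like cells in each library but TAC-4w. Myl9 reached 21.4, 26.4, 38.2 and 15.3 CPM against 4.09, 4.95, 18.7 and 3.95 CPM in macrophages, with T cells at 25.4 CPM at TAC-4w. Of all their UMIs, fibroblast-like cells held 26.3% for Lmod1, 25.3% for Tpm2, 14.9% for Tagln, 13.8% for Myl9 and 8.21% for Acta2.

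Platelet-like cells were a further source of Myl9, a light chain that platelets use to change shape. Their level was 3208, 3370, 3956 and 4144 CPM in group order, with 53, 10, 552 and 13 such cells, and their Tpm2 was 614, 337, 508 and 863 CPM. In the TAC-4w library platelet-like cells held 2951 of the 4136 Myl9 UMIs, 71.3%, against 3.40% in sham. The library-wide level of Myl9 at TAC-4w thus came mostly from platelet-like cells. In sham, TAC-2w and TAC-6w fibroblast-like cells held more of the Myl9 UMIs than platelet-like cells did. The shares were 16.9% against 3.40%, 13.9% against 0.509% and 24.8% against 4.10%.

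The mural-like cluster was not uniform for these genes. It was split into 3 sub-clusters with the 8 genes and the other contractile genes left out, a number chosen after the cells were seen. The split gave 49 cells low in the 8 genes and 2 sets of 124 and 47 cells with high levels. Sub-cluster 1 was led by Abcc9, Kcnj8, Vtn and Pdgfrb, genes of pericytes, with 9809 CPM of Rgs5 and 1380 of Kcnj8. Acta2 there was 81.2 CPM, against 18801 in sub-cluster 2 and 22189 in sub-cluster 3. Myh11 was 81.2, 6402 and 3558 CPM in the same order, Tagln 67.6, 17971 and 16920, and Cnn1 and Actg2 had no UMI in sub-cluster 1. Tpm2 was 352, 9610 and 5746 CPM. The other contractile genes were mixed: Csrp1 was 40.6, 1753 and 1072 CPM, Cald1 1231, 2924 and 1807, and Vcl 379, 297 and 290. The cells of sub-cluster 1 were shallow, with a median of 1162 UMIs against 12690 and 16419, and came from the sham (26) and TAC-2w (23) libraries only.

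The contractile sub-clusters differed in which genes were high. Sub-cluster 2 was led by Ly6c1, Rbp7, Sncg, Tcf15, Cdh5 and Cldn5. Cdh5 and Cldn5 are endothelial markers, and Ly6c1 was also among the leading genes of the endothelial cluster. These leading genes are thus not read as marks of a smooth muscle subset, and the part of endothelial RNA or cells in sub-cluster 2 was not tested. Sub-cluster 3 was led by Fmo2, Mfap4 and Sost and carried 1141 CPM of Eln, elastin, against 167 in sub-cluster 2, and 1794 against 107 CPM of Dcn, a fibroblast gene. Sub-cluster 3 over sub-cluster 2 was 0.556 (0.533 to 0.580) for Myh11, 0.598 for Tpm2, 0.725 for Myl9, 0.905 for Lmod1 and 0.942 for Tagln. For Acta2, Actg2 and Cnn1 the ratio was 1.18, 1.41 and 1.61. Of the 47 cells of sub-cluster 3, 40 were from the sham library, so that these ratios partly set sham against TAC libraries.

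**Figure D2:**
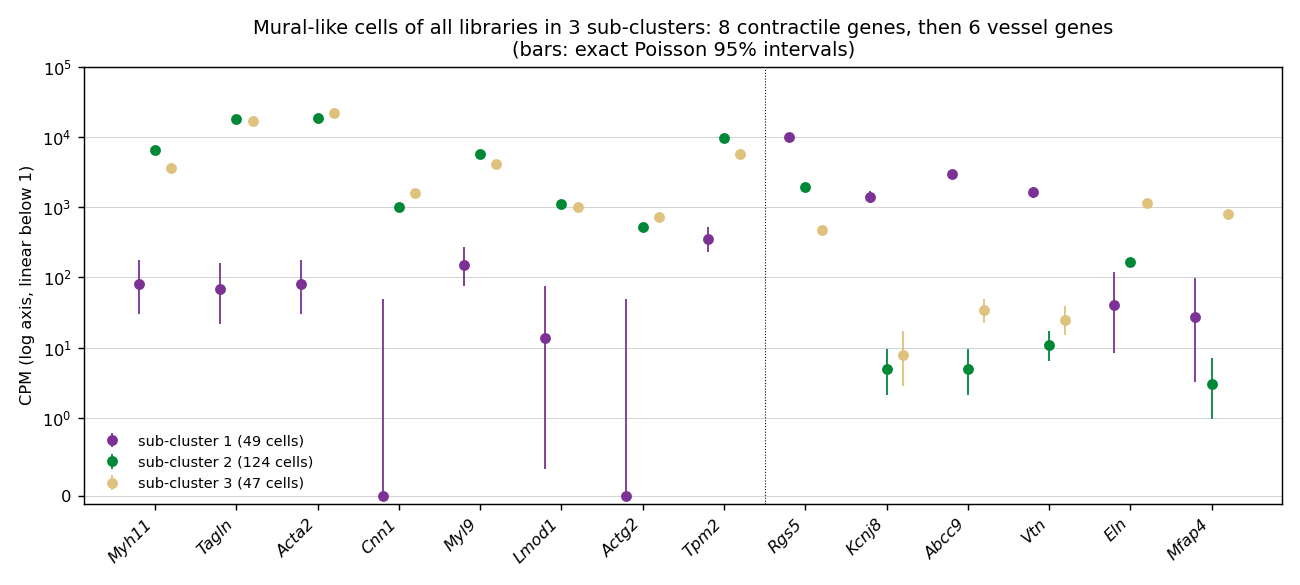
Levels of the 8 contractile genes and of 6 other vessel genes in 3 sub-clusters of mural-like cells, all libraries pooled, in CPM with exact Poisson 95% intervals. Sub-cluster 1, with 49 cells, is high for Rgs5, Kcnj8, Abcc9 and Vtn and far below the other sub-clusters for the contractile genes, such as Acta2 with 81.2 CPM against 18801 and 22189 CPM.

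The mural-like cells of each TAC library were then set against those of sham, which compares libraries with 91, 7 and 19 such cells with 103. At TAC-2w Myh11 was higher, 7293 against 3624 CPM, by 2.01 times (1.94 to 2.09), and Tpm2 by 1.71 times, while the other 6 genes lay between 1.12 and 1.38. That is 2 of 8 called higher and none lower, where 6.59% of all genes tested were called higher and 11.1% lower. At TAC-4w Actg2 at 2.42 (1.92 to 3.03), Tpm2 at 2.10 and Myl9 at 1.66 were higher, 3 of 8 against 15.0% of all genes higher and 34.6% lower. At TAC-6w, within the batch, Tpm2 was higher at 1.59 (1.49 to 1.69) and Actg2 lower at 0.594 (0.422 to 0.816), 1 of 8 each, against 15.3% of all genes higher and 32.7% lower. Tpm2 was thus the gene called higher at all 3 times.

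These ratios moved with which mural-like cells a library held. In sub-cluster 2 alone, with 37, 62, 7 and 18 cells in group order, 5 of the 8 genes were called higher at TAC-2w, where 7.84% of all genes tested in these cells were. They were Actg2 at 2.58, Cnn1 at 2.26, Myh11 at 1.65, Tpm2 at 1.60 and Tagln at 1.54. At TAC-4w Actg2 at 5.21, Tpm2 at 1.83, Acta2 at 1.78 and Myl9 at 1.51 were past the limit there. At TAC-6w Cnn1 at 1.66 (1.31 to 2.09) was past it, whereas Tpm2 at 1.47 and Actg2 at 0.725 were not. The share over all genes in these cells was not taken at the later times. In the 5 vessel wall matrix genes (Eln, Fbln5, Mfap4, Mfap5 and Itga8), which marked sub-cluster 3, 4, 5 and 5 of 5 were lower than sham in all mural-like cells at the 3 times.

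Over all cells, which mix the cell types of a library, most of the genes were lower than sham at 4 and 6 weeks. The part of the changing share of mural-like cells in these ratios was not tested. At TAC-2w Myh11 was 2.15 and Tpm2 1.57 times sham and the others were 1.19 to 1.40 times sham, 2 of 8 called higher and none lower, with 2.45% of all genes higher and 1.94% lower. At TAC-4w 7 of 8 were lower, from Cnn1 at 0.0914 to Tpm2 at 0.326, with 20.7% of all genes higher and 28.9% lower; Myl9, with its platelet source, stood at 1.26. At TAC-6w 7 of 8 were lower, between 0.212 and 0.575, with 7.12% of all genes higher and 15.9% lower; Tpm2 stood at 0.690. When cells with a mitochondrial share of 5% or more were left out, which removes most mural-like cells, Myh11 at TAC-2w turned to 0.566 and Tpm2 to 0.898.

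In fibroblast-like cells the genes moved apart from each other. Tagln stood at 53.3 CPM (51.3 to 55.4) in sham, 59.0 in TAC-2w, 73.0 in TAC-4w and 108 (104 to 113) in TAC-6w, a ratio to sham of 2.03 (1.92 to 2.16) at TAC-6w, within the batch. Lmod1 stood at 6.37 CPM (5.68 to 7.12), 10.5, 26.8 and 2.16 (1.55 to 2.93), with ratios of 1.66 (1.43 to 1.92), 4.20 (3.46 to 5.09) and 0.339 (0.239 to 0.471). Acta2 stood at 34.4, 36.6, 101 and 30.7 CPM, with ratios of 2.93 (2.67 to 3.22) at TAC-4w and 0.892 at TAC-6w. Tagln was thus above sham in each TAC library, whereas Acta2 was above it by more than 1.5 times at TAC-4w alone and Lmod1 fell below it at TAC-6w. With only cells under 5% mitochondrial share, clustered anew, no gene was higher at TAC-2w or TAC-6w and 3 and 5 were lower, with Tagln at 1.29 and Lmod1 at 0.262 at TAC-6w and Lmod1 at 1.13 at TAC-2w. No share over all genes is given beside these counts. That clustering put most remaining mural-like cells among the fibroblast-like cells: 9 of 10 in sham, 4 of 4 in TAC-2w and 2 of 2 in TAC-6w. Keeping the cell types was an alternative chosen after seeing the data. With it Tagln was 1.95 and Lmod1 0.319 at TAC-6w and Lmod1 1.54 at TAC-2w.

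Of the 6 genes with enough UMIs in fibroblast-like cells, Lmod1 and Myh11 (2.02) were called higher at 2 weeks and none lower. Over all genes 2.21% were higher and 1.51% lower. Myh11 was below its macrophage level in both of these libraries. At TAC-4w Lmod1, Acta2 and Myl9 (1.79, 1.55 to 2.06) were higher and Myh11 (4 UMIs) lower, where 13.0% of all genes were higher and 8.30% lower. At TAC-6w Tagln was higher and Lmod1 and Myh11 lower, where 7.38% of all genes were higher and 13.9% lower; Tpm2 stood at 1.07 and Myl9 at 0.716. The list of 5 activated-fibroblast genes had 1, 3 and 4 of 5 higher at the 3 times, with Postn, periostin, at 1.21, 1.03 and 2.70.

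**Figure D3:**
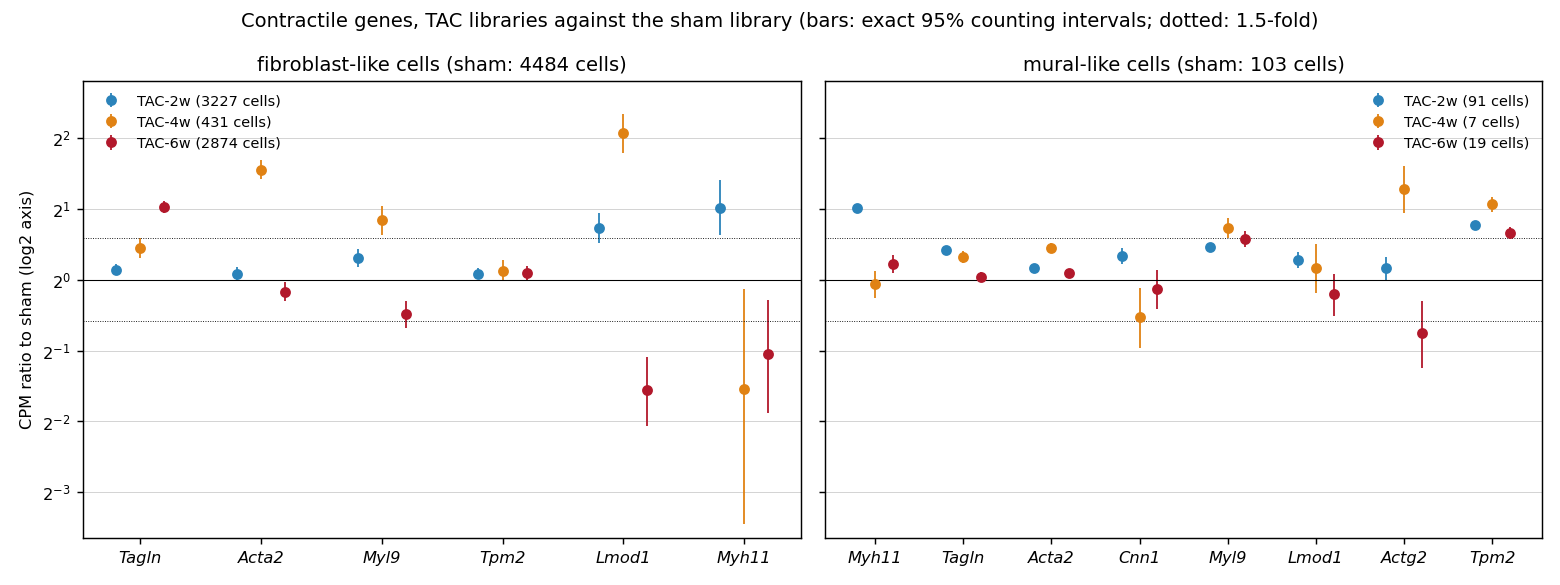
Ratio of CPM in each TAC library to sham for the contractile genes in fibroblast-like cells (left) and mural-like cells (right), on a log2 axis with exact 95% counting intervals; dotted lines mark 1.5-fold. In fibroblast-like cells Tagln rises to 2.03 at TAC-6w while Lmod1 goes from 4.20 at TAC-4w to 0.339 at TAC-6w; in mural-like cells Tpm2 is above 1.5 at each time.

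The fibroblast-like cells formed 3 clusters, and the genes were spread unequally over them. Lmod1 was at 11.2, 16.9, 36.7 and 6.8 CPM in cluster 1 and at 0.8, 1.5, 0 and 0.6 CPM in cluster 0, both in group order. Cluster 1 held 2347, 1714, 310 and 655 of the fibroblast-like cells and cluster 0 held 1970, 1354, 81 and 2150, so the low Lmod1 at TAC-6w came with fewer cells of cluster 1, and within that cluster TAC-6w was also below sham. Tagln in cluster 0 was 55.9, 54.9, 98.3 and 117 CPM and in cluster 1 41.0, 48.0, 55.5 and 48.5 CPM. Cluster 10, the smallest, had the highest Tagln in each library, with 168 CPM in sham and 273 in TAC-6w. Acta2 in cluster 10 was 87.2, 112, 73.0 and 208 CPM.

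Fibroblast-like cells with a UMI of Postn, each cell thinned to 1000 UMIs, had 3.38 times (3.11 to 3.67) the Tagln of those without in sham, 3.78 times in TAC-2w, 1.48 times in TAC-4w and 4.90 times (4.47 to 5.37) in TAC-6w, where the levels were 255 against 52.1 CPM. Acta2 was 1.31, 1.95, 0.55 and 2.87 times as high in group order. Lmod1 stood at 0.573 (0.361 to 0.870), 0.830 (0.609 to 1.11), 0.755 (0.435 to 1.23) and 0.627 (0.25 to 1.39), so that its interval lay below 1 in sham alone. For Myl9 the values were 0.680 (0.544 to 0.842), 0.872 (0.723 to 1.04), 0.731 (0.463 to 1.11) and 0.554 (0.401 to 0.753), below 1 in sham and TAC-6w. Postn was seen in 456 of 4452 thinned cells in sham and 619 of 2845 in TAC-6w, and these cells were deeper before thinning, with medians of 13042 against 10387 and 8103 against 5863.5 UMIs.

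In the sections, which keep the vessels in place, most of the genes were lower at TAC-2w than in sham, and 2 of them at each later time. In a section fewer cells of a type and less RNA per cell cannot be told apart. Myh11 was at 25.0 CPM (23.2 to 27.0) in sham, 12.5 (11.5 to 13.5) in TAC-2w, 18.1 in TAC-4w and 15.3 in TAC-6w. Its ratios were 0.497 (0.444 to 0.556), 0.721 and 0.609, so that sham was the highest section. Myl9 was at 44.7, 27.2, 30.5 and 33.5 CPM, with ratios of 0.609, 0.683 and 0.750.

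Acta2 stayed within 1.5 times of sham, with 87.4 CPM (83.8 to 91.1) in sham and 76.5, 64.9 and 79.9 in the TAC sections, ratios of 0.876, 0.743 and 0.914. Tpm2 fell at TAC-2w only, with 35.1, 20.9, 35.6 and 40.9 CPM and ratios of 0.595, 1.01 and 1.16. Actg2, with 35, 31, 14 and 38 UMIs, was too low for a call. Tagln was at 26.0, 15.2, 19.0 and 19.1 CPM, a ratio of 0.585 (0.526 to 0.650) at TAC-2w, Cnn1 at 3.35, 1.07, 1.91 and 2.61 CPM, with 0.319 (0.222 to 0.454), and Lmod1 at 4.04, 2.07, 2.38 and 2.36 CPM, with 0.513 (0.386 to 0.681). The sham section was the highest for 7 of the 8 genes, Tpm2 excepted.

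Of the 7 genes tested, 6 were lower at TAC-2w, within the batch, where 4.95% of all genes were higher and 3.27% lower. At TAC-4w Cnn1 at 0.571 and Lmod1 at 0.589 were lower, 2 of 7, where 15.2% of all genes were higher and 2.50% lower. At TAC-6w Myh11 and Lmod1 at 0.584 were lower, 2 of 7, where 17.6% of all genes were higher and 0.962% lower. The median ratio of all genes was 1.03, 1.16 and 1.24 at the 3 times. These counts depended on the way of counting. With the top 2% of spots left out, 1 gene was lower at TAC-2w and none at TAC-4w or TAC-6w. As a mean over spots, 3, 1 and 0 genes were lower at the 3 times, and per UMI of the nuclear genes without features resembling ribosomal RNA, 6, 6 and 4. The shares over all genes were not taken under these other ways of counting. Their counts are thus not read as results about these genes. In the libraries Myh11 and Tpm2 at TAC-2w were above sham, and the opposite direction in the sections was not tested.

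Levels were also taken apart into the richest spots and the rest, a split that uses the counts of the same genes. The 2% of spots with the most UMIs of the 8 genes together, 34, 42, 25 and 44 spots in group order, had 383, 190, 266 and 184 CPM of Myh11 and 1119.8, 599, 633 and 587 CPM of Acta2. In the remaining spots Myh11 was 13.0, 8.2, 11.6 and 9.5 CPM and Acta2 52.7, 63.9, 50.2 and 62.5 CPM. Tpm2 was 421, 213, 269 and 230 CPM in the top spots, and 22.1, 16.3, 29.5 and 34.4 CPM in the rest. The rest of the spots at TAC-2w stood at 0.747 times sham for Tagln, 0.381 for Cnn1, 0.789 for Myl9 and 0.628 for Myh11. Lmod1 stood at 0.698 (0.487 to 1.01), Actg2 at 0.642 (0.298 to 1.41), Tpm2 at 0.735 and Acta2 at 1.21. Only Myh11 was called lower there at the 1.5-fold limit, since Cnn1 and Actg2 were under 50 UMIs. At TAC-4w the ratio in the rest was above 1 for Tpm2 alone, at 1.34, and at TAC-6w for Tpm2, Acta2 and Cnn1, at 1.56, 1.19 and 1.03. In the top spots all 8 genes were below sham at every time, Myh11 for example at 0.496, 0.693 and 0.479. The intervals held 1 for Actg2 at TAC-2w (0.231 to 1.01) and Cnn1 at TAC-4w (0.569 to 1.43).

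**Figure D4:**
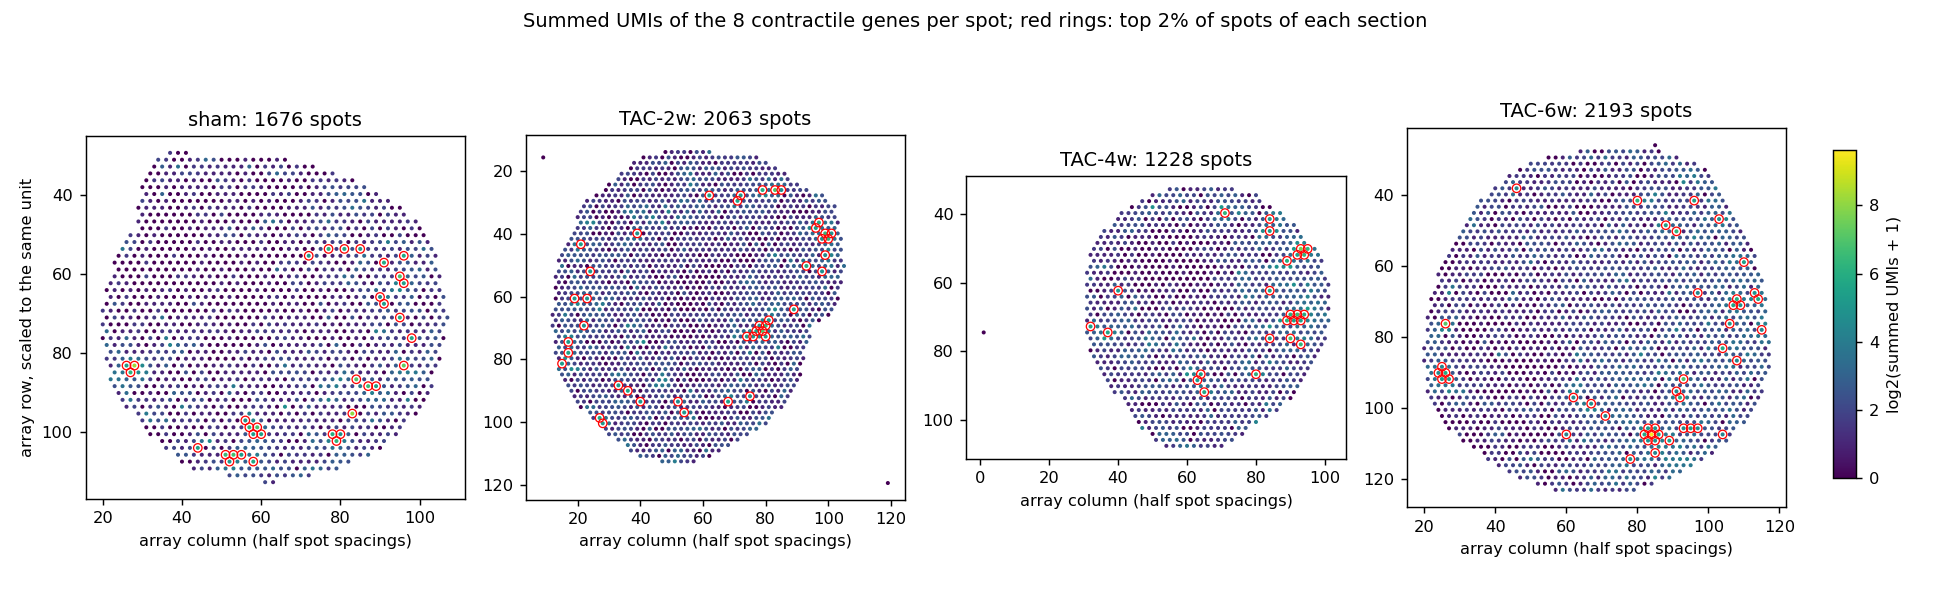
Summed UMIs of the 8 contractile genes per spot, drawn in array positions for each section and coloured on a log2(UMIs + 1) scale, with red rings around the top 2% of spots. A few spots, single or in small groups, stand out from a field in which the median spot outside the top 2% holds 1 to 2 UMIs of these genes.

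How far each gene was gathered into few spots was measured by the share of its UMIs in its own top 2% of spots. Myh11 had 51.8%, 39.7%, 39.2% and 45.5% there in group order, Tagln 51.4%, 38.5%, 41.4% and 39.9%, and Myl9 44.4%, 28.4%, 36.3% and 32.6%. Acta2 had 41.9%, 19.1%, 25.3% and 25.4% and Tpm2 40.7%, 26.1%, 20.5% and 21.4%. Sham had the highest share for each of these 5 genes. It also had the highest median over all genes with at least 200 UMIs in the section, 18.0% against 15.2%, 13.8% and 16.9% in the TAC sections, and the fewest UMIs. The share rises by counting alone when a gene is rare: Cnn1 had 59.5% to 96.2%, Lmod1 51.3% to 66.7% and Actg2 100% in every section. All 8 genes passed 10%, 5 times an even share. But so did 88.7% of all genes with at least 200 UMIs in sham, 76.7% in TAC-2w, 73.9% in TAC-4w and 86.6% in TAC-6w, so that this count says little of the 8.

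Spots were therefore also ranked by the other 7 genes, which a gene's own counting does not choose. Myh11 then had 49.8% (45.9 to 53.7), 35.1%, 35.0% and 39.1% of its UMIs in the top 2% of spots and Tagln 48.9%, 34.1%, 36.3% and 33.3%. Cnn1 had 50.6%, 40.4%, 59.0% and 34.1%, Lmod1 46.7%, 26.7%, 31.6% and 34.2%, and Actg2 57.1%, 45.2%, 42.9% and 44.7%. Acta2 had 41.5%, 17.7%, 23.6% and 22.7%, Myl9 43.8%, 25.7%, 34.1% and 28.9%, and Tpm2 38.3%, 23.3%, 19.2% and 17.6%. All 8 were above 10% in all 4 sections. In the top spots by the 8 genes, 10% or more was reached by 1.87% of all genes in sham, 0.317% in TAC-2w, 0.363% in TAC-4w and 0.325% in TAC-6w. These shares are over genes with at least 200 UMIs in the section. Cnn1, Lmod1 and Actg2 lay below that floor in every section, so they are set beside more abundant genes. The set was not apart from every other gene in the TAC sections. In TAC-2w Cilp reached 28.6%, above Lmod1, Myl9, Tpm2 and Acta2, and Mustn1 20.3%, above Acta2. In TAC-4w Cilp at 21.5% and Adamtsl2 at 20.7% were above Tpm2. Mustn1 reached 24.9% in TAC-6w, above Acta2 and Tpm2. These spots held 3.25%, 2.35%, 2.53% and 3.32% of all UMIs.

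**Figure D5:**
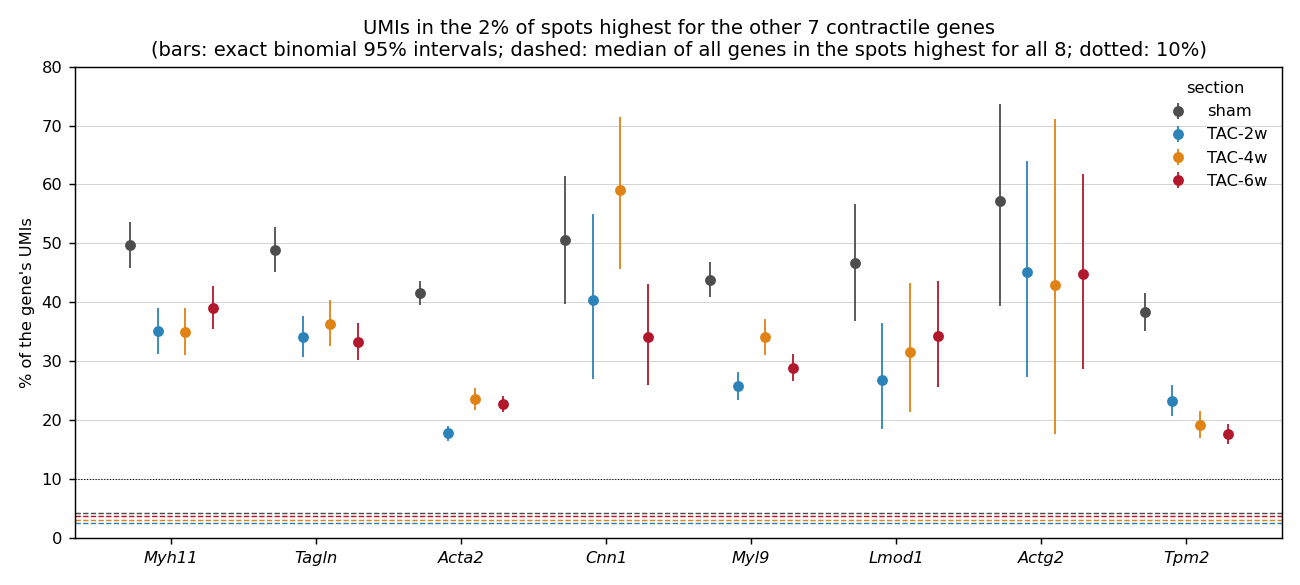
Share of each contractile gene's UMIs, in percent, in the 2% of spots of each section that are highest for the other 7 genes, with exact binomial 95% intervals; the dotted line marks 10%, and dashed lines the median of all genes in the spots highest for all 8. Every point lies above 10%, and sham is highest for each gene except Cnn1, with 59.0% at TAC-4w against 50.6% in sham. The median of all genes, taken over genes with at least 200 UMIs in the section, is also highest in sham, 4.19% against 2.59%, 3.01% and 3.69% in the TAC sections.

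The rich spots lay at many places in each section, and 21, 20, 12 and 22 of them in group order touched another rich spot. The 34, 42, 25 and 44 top spots fell into 20, 28, 16 and 28 groups of touching spots, of which 13, 22, 13 and 22 were single spots and the largest held 5, 8, 6 and 7 spots. In sham the last spot inside the limit held 28 and the next 27 UMIs of the 8 genes; the pairs were 24 and 23, 34 and 34, and 20 and 19 in the TAC sections. No top spot lay on the tissue edge in sham and 3, 2 and 1 did in the TAC sections, 7.14%, 8% and 2.27% of them, where 7.66% to 10.3% of all spots were edge spots. Myh11 and Tagln shared 25 of 34, 24 of 42, 15 of 25 and 14 of 44 of their own top spots. A single TAC-6w spot held 794 UMIs of the 8 genes, 2.30% of its 34468 UMIs, where the next held 135; it carried 280 Acta2 and 103 Myh11 UMIs, the latter 14.0% of Myh11 in that section. The highest sham spot held 295 and its next 262.

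The top spots were described by the other genes in them, since a spot can hold several cell types. The 8 genes together were 23.2, 13.1, 15.5 and 10.6 times as high there as in the rest, which the ranking itself used. The vessel wall matrix list was 4.67, 3.77, 3.84 and 2.55 times as high, with all its tested genes called in each section, and Eln alone was 4.71, 5.14, 3.55 and 2.65 times as high. Of the 15 other contractile genes, 10, 11, 10 and 8 were higher, among them Mylk at 7.93, 7.27, 6.80 and 5.55. Over all genes, 38.5% in sham, 21.0% in TAC-2w, 29.8% in TAC-4w and 16.8% in TAC-6w were called higher in these spots.

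Markers of other cells moved with the top spots to different degrees. The 6 mural markers, which are mostly pericyte genes, were 1.36, 1.07, 1.2 and 1.2 times as high, with Kcnj8 at 0.87, 0.80, 0.74 and 0.97 and Notch3, a receptor of arterial smooth muscle, at 3.27, 2.55, 2.22 and 1.78. The fibroblast list was 2.42, 1.67, 1.98 and 1.71 times as high, the activated-fibroblast list 4.69, 3.46, 3.72 and 2.55, and the macrophage list 2.60, 1.94, 2.08 and 1.48, while the cardiomyocyte list was 1.01, 0.95, 0.95 and 0.95. Their part in the values of the 8 genes in these spots was not tested.

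The genes most like the set were those with the highest share of UMIs in the top spots by the 8 genes, averaged over the 4 sections. They were sought among 6435 other genes with at least 200 UMIs in each section. Cilp, a matrix protein, led with 25.4%, then Mustn1 with 22.1%, Mylk with 16.7%, Mfap4, a microfibril protein, with 16.5%, and Flna, filamin A, with 15.9%. Csrp2, Adamtsl2, Csrp1, Ppp1r14a, an inhibitor of myosin phosphatase, and Sncg followed with 15.3%, 15.2%, 14.6%, 13.6% and 13.4%. On the same measure Rgs5 had 3.72% and Kcnj8 2.47%. Cilp fell from 37.3% in sham to 14.3% in TAC-6w.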

How the data were processed

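The authors deposited UMI counts per gene and barcode or spot, not normalized, on mm10. The file headers name cellranger 6.0.0 and spaceranger 1.2.0, and the submitters' processing notes Cell Ranger 7.0.0 and Space Ranger 1.3.1. The 8 genes and all lists were chosen with earlier results of these data known. Cells with 200 to 6000 genes, 500 to 30000 UMIs and under 15% mitochondrial UMIs were kept, the 3.2% with the highest Scrublet scores (expected rate 7%, Scanpy 1.11.5) were removed from each library, and the merged cells were clustered in Seurat 5.3.0 (R 4.3.3; 3000 variable genes without the 8 genes, 30 components, resolution 0.25). Clusters were named from 6 markers a cell type. All spots were used.

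Counts were summed per sample and cell type and scaled to 1000000 UMIs (CPM). Intervals were exact (Poisson, conditional binomial for ratios) at 95%. A gene was called at 1.5-fold with at least 50 UMIs in either sum. Counts of 0 were kept, and 3 counts replaced 0 only for the lower bound of Actg2 in mural-like over fibroblast-like cells at TAC-4w. Depth runs from 28793316 UMIs in the TAC-6w library to 86671674 in sham. Groups came from the labels, and no test was run on 1 sample a group. Named genes were the 8 genes, fixed lists and the 10 most alike genes; 6 was the number of genes in the vessel panel of the sub-cluster plot, picked after values were seen. Scripts were tested on simulated data. Alternatives were other filters, totals, clusterings and rankings of spots.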

Additional observations from a re-analysis of the deposited data

Results flagged for a closer look

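Several ratios to sham pointed opposite ways between times or between assays; with 1 sample a group none of these differences was tested. Over all cells Myh11 was 2.15 times sham in the TAC-2w library, 0.115 in TAC-4w and 0.367 in TAC-6w. Tpm2 over all cells was 1.57 in the TAC-2w and 0.326 in the TAC-4w library. Mural-like cells made up 1.29%, 1.45%, 0.107% and 0.352% of the libraries in group order, and their part in these ratios was not tested.

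In fibroblast-like cells Myh11 was 2.02, 0.345 and 0.485 times sham at 2, 4 and 6 weeks, at levels near those of macrophages. Lmod1 in the same cells was 1.66, 4.20 and 0.339 times sham. Actg2 in mural-like cells was 2.42 at TAC-4w, in 7 cells, and 0.594 at TAC-6w, in 19 cells.

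The assays differed at TAC-2w: Myh11 was 2.15 times sham in the library and 0.497 times in the section, and Tpm2 was 1.57 and 0.595 times. The section comparison lies within a labelled batch and the library comparison does not.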

How the results depend on the processing

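Counts of genes called higher or lower than sham changed as follows. In the sections, the mean over spots gave 3 lower at TAC-2w (6 in the summed counts), 1 lower at TAC-4w (2), and 1 higher and 0 lower at TAC-6w (0 and 2). Leaving out the top 2% of spots gave 1 lower at TAC-2w, 0 at TAC-4w, and 1 higher and 0 lower at TAC-6w. Leaving mitochondrial and ribosomal-RNA-like features out of the total gave 6 lower at TAC-4w and 4 at TAC-6w. Over all cells of the libraries, doublets kept gave 4 higher at TAC-2w (2), and cells under 5% mitochondrial share alone gave 0 higher and 3 lower at TAC-2w and 1 higher and 4 lower at TAC-4w (0 and 7); there Myh11 reversed to 0.566 and Tpm2 to 0.898 at TAC-2w, and Tagln to 1.22 at TAC-6w. That filter leaves 16 of 220 mural-like cells and no mural cluster, so it gave no mural ratio. In fibroblast-like cells it gave 0 higher and 3 lower at TAC-2w, with Myh11 at 0.479. It gave 1 higher and 2 lower at TAC-4w, and 0 higher and 5 lower at TAC-6w. Its new clustering put 9 of 10 remaining sham, 4 of 4 TAC-2w and 2 of 2 TAC-6w mural-like cells among fibroblasts. With the cell types kept, added after seeing the data, TAC-6w fibroblast Tagln was 1.95 and Lmod1 0.32. In mural-like cells, sub-cluster 2 alone, also added after seeing the data, gave 5 higher at TAC-2w (2) and 0 lower at TAC-6w (1), and doublets kept gave 2 higher at TAC-6w (1). Among these alternatives, the share over all genes is given only for sub-cluster 2 at TAC-2w, where 7.84% were higher. The causes were not tested beyond the cell counts given. The counts over mural against fibroblast and over the top spots stayed within 1.5 times under the alternatives run. In the main setting all genes tested lay far past both limits, so these counts had little room to move. They say little of how the ratios and shares themselves moved. No paired analysis was possible because each group had 1 sample, and no replicate could be left out. Actg2, with 14 to 38 UMIs a section, was too low for a call there.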

Other observations

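Neutrophil-like cells held more Acta2 than macrophages and B cells in each library. Acta2 was 102, 73.3, 68.4 and 79.6 CPM in group order, and Tagln 11.9, 36.6, 3.99 and 23.4 CPM. In macrophages Acta2 was 7.44, 12.8, 2.08 and 9.03 CPM and in B cells 12.1, 24.2, 0.90 and 11.5 CPM. The TAC-4w library held the most neutrophil-like cells, 1252, and there Acta2 had 411 UMIs.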
